A study of Mus musculus with 12 samples.

Results

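The RNAs described here are those encoded by the mitochondrial genome itself. They were taken as every row of the deposited table whose gene name starts with mt-, which gave 37 of the 53351 genes. They are 13 mRNAs, 2 rRNAs and 22 tRNAs of the mouse mitochondrial chromosome (MT in GRCm38, the assembly of mm10). RefSeq's table for that assembly held all 37, the last of them ending at position 15422. The mRNAs ran from 204 to 1824 bases, the rRNAs were 955 and 1582 bases long, and the tRNAs measured 59 to 75 bases.

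The libraries come from wild-type mouse cortical neural progenitor cells, dividing cells of the embryonic cortex (E13.5) that were dissociated and grown overnight. The 4 groups of 3 biological replicates are polysome RNA from Torin1 cells, polysome RNA from DMSO cells, total RNA from Torin1 cells and total RNA from DMSO cells. Torin1, an inhibitor of the kinase mTOR, was given at 250 nM for 2 h, and DMSO is its solvent. All 4 groups received cycloheximide at 100 ug/ml for 5 min, which stalls cytosolic ribosomes on their mRNAs, and were lysed with detergents; 10% of a lysate was the total RNA, and the sucrose gradient fractions with more than 3 ribosomes per mRNA were the polysome RNA.

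Mitochondria transcribe both strands of their small circular genome as long precursors, which are cut into rRNAs, tRNAs and mRNAs. The mRNAs encode subunits of respiratory complexes I, III and IV and of ATP synthase, and they are translated inside the organelle by mitochondrial ribosomes built on the 2 mitochondrial rRNAs. Cycloheximide does not stop mitochondrial ribosomes, and cytosolic ribosomes do not read these RNAs. Their level in a polysome fraction is therefore commonly read as a measure of its purity.

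The deposited values are relative abundances within a library. They are not read counts, and the number of reads behind them is unknown. The columns summed to 14341674 to 19201406 deposited units. Values below are scaled to a fixed total and written as ppm (parts per 1000000), or as the percent of a library's column total where so named. The sources used here do not say whether values were divided by gene length, so levels are compared between groups and not between genes. Markers of neural progenitors (8 genes) summed to 3396 to 7024 ppm and of neurons (5 genes) to 2581 to 3207 ppm, while markers of endothelial and mural cells (5 genes) summed to 10.7 to 23.7 ppm and of microglia and blood (5 genes) to 3.88 to 10.4 ppm. Those of intermediate progenitors (3 genes) summed to 108.8 to 189.7 ppm and of meninges (5 genes) to 28.6 to 68.3 ppm. In total libraries the intermediate progenitor markers had 182.6 to 189.7 ppm with Torin1 and 121.2 to 126.4 ppm with DMSO. The meninges markers had 49.7 to 62.1 ppm and 28.6 to 35.5 ppm there. The 6 globin genes that mark erythroid cells summed to 2080 to 3221 ppm in Torin1 polysome libraries, 1939 to 2443 ppm in DMSO polysome libraries, 1630 to 1902 ppm in Torin1 total libraries and 1501 to 1613 ppm in DMSO total libraries. No marker of these lists was at 0 in all 12 libraries, and the part of these cells in the mitochondrial values was not tested. Replicate 2 of Torin1 total RNA stood apart, with 2062 ppm of Rn7sk, the 7SK RNA that holds back transcription elongation, where the other total libraries had 38.2 to 180.9 ppm. It also had 2295 ppm of Rmrp, another noncoding RNA, where the other total libraries had 1.24 to 113.7 ppm. The row CT010467.1 had 33940 ppm there and 1983 to 3063 ppm in the other total libraries. Some values of rRNAs and of nuclear gene lists that this library moves are given with and without it.

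Mitochondrially encoded RNAs made up a smaller share of polysome than of total libraries in both treatments. All mt- rows together held 1.71, 2.18 and 2.27% of the column total in Torin1 polysome libraries, 2.04, 1.16 and 1.52% in DMSO polysome libraries, 8.89, 8.33 and 8.73% in Torin1 total libraries and 8.39, 8.43 and 8.19% in DMSO total libraries. Every polysome library lay below every total library, and the ranges of the Torin1 and DMSO polysome libraries overlapped. The means were 2.05 ± 0.303% and 1.57 ± 0.440% in Torin1 and DMSO polysome libraries and 8.65 ± 0.289% and 8.34 ± 0.129% in Torin1 and DMSO total libraries (SD, n = 3 each). Relative to the mean of the total libraries of the same treatment, the polysome share was 23.8 ± 3.51% with Torin1 and 18.9 ± 5.27% with DMSO; after trimmed mean scaling these means were 25.8% with Torin1 and 25.4% with DMSO. The SD was 14.8% of the mean for Torin1 polysome libraries, 28.0% for DMSO polysome libraries, 3.34% for Torin1 total libraries and 1.55% for DMSO total libraries.

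**Figure D1:**
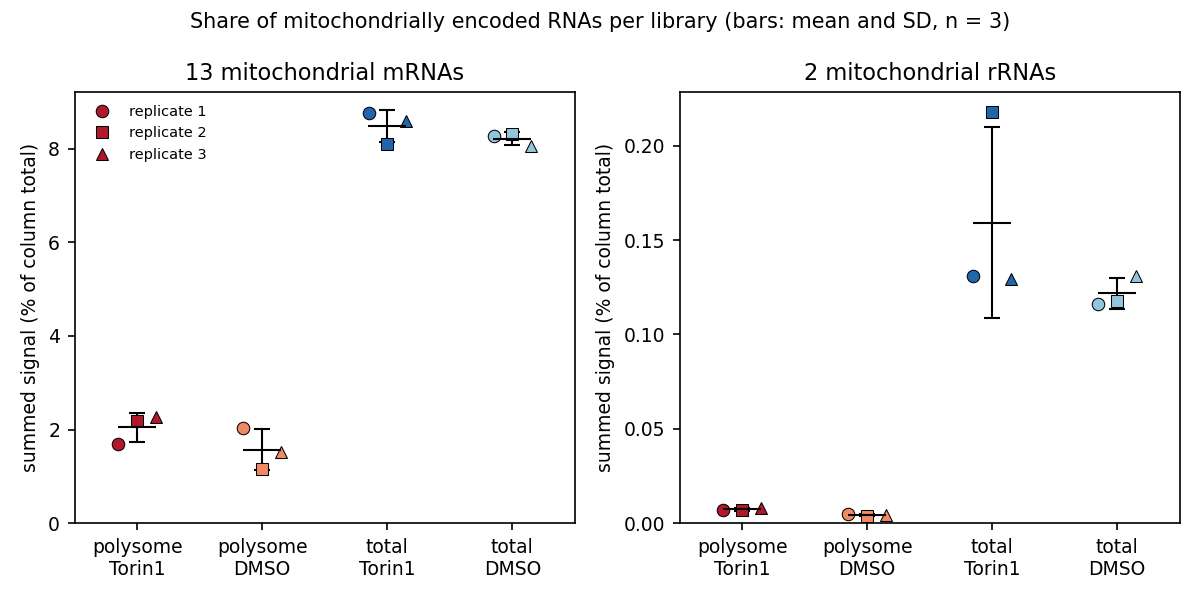
Percent of each library's column total held by the 13 mitochondrial mRNAs (left) and the 2 mitochondrial rRNAs (right); each point is a library, its shape the replicate, and the bars give the mean and SD of 3 libraries. The mRNA share lies between 1.16 and 2.26% in the 6 polysome libraries and between 8.06 and 8.76% in the total libraries, and replicate 2 of Torin1 total RNA is high for the rRNAs.

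Relative to total RNA, the 2 rRNAs together were lower in polysome libraries than the 13 mRNAs together. Both together held 0.00685, 0.00701 and 0.00795% of the column total in Torin1 polysome libraries and 0.00502, 0.00365 and 0.00446% in DMSO polysome libraries. These ranges did not overlap, on a scale where the median log2 fold of all genes between them was itself 0.23. After trimmed mean scaling, every Torin1 polysome library lay above every DMSO polysome library for mt-Rnr1, as for 11.0% of all genes. For mt-Rnr2 the ranges overlapped, and neither rRNA was called for Torin1 against DMSO. The rRNAs together held 0.131, 0.218 and 0.129% in Torin1 total libraries and 0.116, 0.118 and 0.131% in DMSO total libraries. The polysome share was 4.57 ± 0.374% of the total share with Torin1 and 3.60 ± 0.566% with DMSO (SD, n = 3), against 24.1 ± 3.57% and 19.1 ± 5.34% for the 13 mRNAs. The values with Torin1 were 5.59 ± 0.458% for the rRNAs and 23.6 ± 3.49% for the mRNAs without replicate 2 of Torin1 total RNA. These SDs leave out the spread of the total libraries. For the rRNA share, the SD of the total libraries was 31.8% of their mean with Torin1 and 6.69% with DMSO. The ranges of these summed rRNAs and summed mRNAs did not overlap in either treatment. Some single mRNAs lay near the rRNA mt-Rnr1. After trimmed mean scaling, mt-Rnr1 averaged 6.48 and 6.87% of total in Torin1 and DMSO cells, and the mRNA mt-Atp8 7.66 and 7.03%. The rRNA mt-Rnr2 averaged 3.42 and 3.27%. The sources used here do not say how rRNA was removed or poly(A) RNA selected for these libraries, so these levels do not measure the rRNA content of the cells.

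Of the 15 mRNAs and rRNAs, all of which were tested, 12 were lower in polysome than in total RNA of DMSO cells and none was higher (limma, Benjamini-Hochberg adjusted p under 0.05 over 20240 genes). Of all genes tested, 19.3% were lower, 21.8% were higher and 41.2% differed in either direction. Their median log2 fold was -2.60, and the median of all genes tested was -0.0046. In Torin1 cells 13 of the 15 were lower and none was higher. Of all genes, 19.1% were lower, 20.7% were higher and 39.8% differed in either direction. The median log2 fold of the 15 was -2.64, against -0.02 for all genes. Every polysome library lay below every total library for 14 of the 15 in DMSO cells, which held for 25.9% of all genes, and for 13 of the 15 in Torin1 cells, which held for 23.5% of all genes. The 22 tRNAs were listed at 0 in all 12 libraries and were not tested.

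The rRNAs of the small and large mitochondrial ribosomal subunits, mt-Rnr1 (12S, MT:70-1024) and mt-Rnr2 (16S, MT:1094-2675), were low in every polysome library. mt-Rnr1 had 45.9, 46.2 and 50.1 ppm in Torin1 polysome libraries and 37.6, 24.2 and 35.6 ppm in DMSO polysome libraries, against 574.9, 1068 and 552.9 ppm in Torin1 total libraries and 442.6, 467.5 and 507.8 ppm in DMSO total libraries. It fell by 3.88 ± 0.22 on the log2 scale in polysome against total RNA of Torin1 cells (limma, adjusted p = 7.21e-07) and by 3.88 ± 0.22 in DMSO cells (adjusted p = 6.48e-07; fold ± SE). Without replicate 2 of Torin1 total RNA the log2 fold in Torin1 cells was -3.57 (limma, adjusted p = 8.26e-07). mt-Rnr2 had 21.0, 19.0 and 37.1 ppm in Torin1 polysome libraries and 25.1, 16.3 and 20.0 ppm in DMSO polysome libraries, against 625.6, 1010 and 616.1 ppm in Torin1 total libraries and 608.2, 603.2 and 663.6 ppm in DMSO total libraries. The groups did not overlap, with log2 folds of -4.89 ± 0.25 in Torin1 cells and -4.95 ± 0.25 in DMSO cells. For mt-Rnr2 the fold in Torin1 cells was -4.66 without replicate 2 of Torin1 total RNA.

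Complex I, the NADH dehydrogenase that feeds electrons into the respiratory chain, has 7 mitochondrially encoded subunits, and their polysome levels spread widely. mt-Nd1 (MT:2751-3707) had 469.0, 538.1 and 609.0 ppm in Torin1 polysome libraries and 600.9, 290.2 and 496.9 ppm in DMSO polysome libraries, against 6640, 6043 and 6247 ppm in Torin1 total libraries and 6409, 6556 and 6238 ppm in DMSO total libraries. It was 11.8-fold lower in polysome than in total RNA of Torin1 cells and 14.5-fold lower in DMSO cells, with log2 folds of -3.56 ± 0.21 and -3.85 ± 0.21 (limma, adjusted p = 7.40e-07 and 5.27e-07). mt-Nd5, the longest of the mRNAs (MT:11742-13565), lost far less. It had 867.1, 1107 and 1526 ppm in Torin1 polysome libraries and 1237, 937.8 and 1177 ppm in DMSO polysome libraries, against 1812, 1832 and 1790 ppm in Torin1 total libraries and 1781, 1744 and 1727 ppm in DMSO total libraries. Its log2 folds were -0.67 ± 0.17 in Torin1 cells and -0.66 ± 0.17 in DMSO cells (limma, adjusted p = 0.00667 and 0.00732), and the groups did not overlap.

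The folds of mt-Nd2, mt-Nd4, mt-Nd4l and mt-Nd6 lay between these, and mt-Nd3, below, did not. mt-Nd2 had log2 folds of -1.85 ± 0.25 in Torin1 cells and -1.84 ± 0.25 in DMSO cells, with 451.9 to 1075 ppm over the polysome libraries and 2509 to 2688 ppm over the total libraries. mt-Nd4 had -1.25 ± 0.24 and -1.29 ± 0.24, with 925.8 to 1880 ppm over polysome and 3149 to 3488 ppm over total libraries. mt-Nd4l, whose reading frame overlaps that of mt-Nd4 by 7 bases on 1 joint mRNA, had -1.34 ± 0.38 and -1.25 ± 0.38, and its ratio to mt-Nd4 within a library was 0.255 to 0.483 in Torin1 polysome libraries, 0.307 to 0.474 in DMSO polysome libraries, 0.345 to 0.439 in Torin1 total libraries and 0.318 to 0.447 in DMSO total libraries. The call for mt-Nd4l was lost in Torin1 cells without replicate 1 or 2 of Torin1 polysome RNA and in DMSO cells without replicate 2 of DMSO polysome RNA or replicate 1 of DMSO total RNA (highest adjusted p 0.0581 and 0.0731, limma). The level of mt-Nd4l is uncertain, because whether it shares reads with Gm10222, a nuclear row given below, was not tested. mt-Nd6, the complex I subunit encoded on the opposite strand, had log2 folds of -0.78 ± 0.18 in Torin1 cells and -0.77 ± 0.18 in DMSO cells; its span overlaps that of mt-Nd5 by 14 bases, and the sources used here do not say whether reads were counted by strand, so reads of other precursors of that stretch cannot be told apart from it.

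mt-Nd3, a short complex I mRNA of 348 bases (MT:9459-9806), was lower in every polysome library than in any total library. It had 23.99, 0 and 0 ppm in Torin1 polysome libraries and 108.2, 18.9 and 65.3 ppm in DMSO polysome libraries, against 1444, 741.1 and 1035 ppm in Torin1 total libraries and 801.8, 1253 and 1063 ppm in DMSO total libraries. In both treatments the groups did not overlap. In DMSO cells the log2 fold was -4.32 ± 1.76 (limma, adjusted p = 0.0707), which did not pass the threshold in the fit over all 12 libraries but did in 4 alternatives, with a lowest adjusted p of 0.00192 when the groups were compared alone. In Torin1 cells it was called lower (adjusted p = 0.000281), with no fold given because polysome libraries listed at 0 enter it.

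mt-Cytb, the only complex III subunit encoded in mitochondria (cytochrome b, MT:14145-15288), was the 1 mRNA with no library at 0 that was called in neither treatment. It had 4935, 5516 and 6740 ppm in Torin1 polysome libraries and 7092, 3968 and 5538 ppm in DMSO polysome libraries, against 6403, 6048 and 6153 ppm in Torin1 total libraries and 6000, 6148 and 5915 ppm in DMSO total libraries. The polysome and total ranges overlapped in both treatments. The log2 fold was -0.13 in Torin1 cells (95% interval -0.54 to 0.28; limma, adjusted p = 0.646) and -0.16 in DMSO cells (-0.57 to 0.25; adjusted p = 0.541). These intervals did not meet those of mt-Nd1, which ran from -4.01 to -3.10 in Torin1 cells and from -4.31 to -3.40 in DMSO cells. Scaling by column totals only put the median of all genes at -0.11 in Torin1 cells and at -0.37 in DMSO cells. mt-Cytb then had log2 folds of -0.24 in Torin1 cells, not past the threshold (limma, adjusted p = 0.227), and -0.57 in DMSO cells, past it (adjusted p = 0.00519).

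Complex IV, cytochrome c oxidase, has 3 mitochondrially encoded subunits, of which mt-Co1 was the only one well measured in all 12 libraries. mt-Co1 (MT:5328-6872) had 4619, 6273 and 7038 ppm in Torin1 polysome libraries and 7189, 3559 and 5046 ppm in DMSO polysome libraries, against 10130, 9380 and 9698 ppm in Torin1 total libraries and 9384, 9279 and 8970 ppm in DMSO total libraries. The groups did not overlap, with log2 folds of -0.73 ± 0.23 in Torin1 cells (limma, adjusted p = 0.0225) and -0.87 ± 0.23 in DMSO cells (adjusted p = 0.00822). The call in Torin1 cells was lost without replicate 1 of Torin1 polysome RNA or replicate 1 or 3 of Torin1 total RNA (highest adjusted p 0.0957). mt-Co2 was low throughout, with 0, 27.2 and 0 ppm in Torin1 polysome libraries, 51.8, 0 and 0 ppm in DMSO polysome libraries, 51.3, 63.8 and 24.7 ppm in Torin1 total libraries and 73.1, 192.1 and 146.5 ppm in DMSO total libraries. mt-Co3 had 0.0295, 0.140 and 78.0 ppm in Torin1 polysome libraries, 78.8, 73.2 and 0.0246 ppm in DMSO polysome libraries, 155.8, 193.0 and 149.2 ppm in Torin1 total libraries and 220.8, 165.9 and 224.1 ppm in DMSO total libraries. For both, some libraries of a polysome group were at or near 0 and others of the same group were not. The sources used here do not say how reads that also match nuclear sequence were assigned. Whether the low values of mt-Co2 and mt-Co3, or the values of mt-Nd3 at 0, come from this was not tested, so their levels are uncertain. The adjusted p for polysome against total RNA was 0.0641 in Torin1 cells and 0.0297 in DMSO cells for mt-Co2, and 0.0469 and 0.186 for mt-Co3 (limma); the call for mt-Co2 in DMSO cells was lost in 6 alternative fits and that for mt-Co3 in Torin1 cells in 9.

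ATP synthase has a pair of mitochondrially encoded subunits on 1 joint mRNA, mt-Atp8 (MT:7766-7969) and mt-Atp6 (MT:7927-8607), whose reading frames overlap by 43 bases. mt-Atp8 had 3047, 3036 and 4054 ppm in Torin1 polysome libraries and 4219, 1542 and 2771 ppm in DMSO polysome libraries, against 44360, 44450 and 43480 ppm in Torin1 total libraries and 41000, 41090 and 39290 ppm in DMSO total libraries. It was 13.2-fold lower in polysome than in total RNA of Torin1 cells and 15.4-fold lower in DMSO cells, with log2 folds of -3.72 ± 0.28 and -3.95 ± 0.28 (limma, adjusted p = 2.48e-06 and 1.40e-06). mt-Atp6 was low and scattered, with 29.7, 111.6 and 25.9 ppm in Torin1 polysome libraries, 26.2, 49.1 and 51.6 ppm in DMSO polysome libraries, 259.2, 161.2 and 498.2 ppm in Torin1 total libraries and 197.1, 277.1 and 272.0 ppm in DMSO total libraries. It was called lower in both treatments, with log2 folds of -2.64 ± 0.52 and -2.60 ± 0.52 in Torin1 and DMSO cells.

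The level of mt-Atp6 is uncertain because a nuclear row is listed as a copy of it, and the sources used here do not say how shared reads were assigned. Gm10925, on chromosome 1 from 24613971 to 24614651 (GRCm38), is a pseudogene that RefSeq's table lists with the synonym mt-Atp6. Gm10925 had 612.3, 553.9 and 726.8 ppm in Torin1 polysome libraries and 860.4, 316.2 and 617.1 ppm in DMSO polysome libraries, against 8159, 7479 and 7439 ppm in Torin1 total libraries and 7617, 7836 and 7250 ppm in DMSO total libraries. Its log2 folds of -3.62 ± 0.27 in Torin1 cells and -3.78 ± 0.27 in DMSO cells lay beside those of mt-Atp8, and mt-Atp8 stood at 4.98, 5.48 and 5.58 times Gm10925 in Torin1 polysome libraries, 4.90, 4.87 and 4.49 times in DMSO polysome libraries, 5.44, 5.94 and 5.85 times in Torin1 total libraries and 5.38, 5.24 and 5.42 times in DMSO total libraries. Gm10222, a pseudogene 1270 bases away on the same chromosome, had log2 folds of -1.45 ± 0.23 and -1.36 ± 0.23 in Torin1 and DMSO cells. Gm10222 is 297 bases long, as is mt-Nd4l. It had 8370 to 10380 ppm over the total libraries, against 1000 to 1531 ppm for mt-Nd4l. Whether these rows share reads was not tested, so the level of mt-Nd4l and its ratio to mt-Nd4 are uncertain too. Gm28661, Gm28437 and Gm28438, which were picked for their high values in the total libraries and which these tables do not annotate further, had log2 folds of -3.43, -1.94 and -4.27 in Torin1 cells and -3.49, -2.00 and -4.15 in DMSO cells. Choosing rows that are high in total libraries favours a low fold, so these 3 folds are a description and support nothing.

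**Figure D2:**
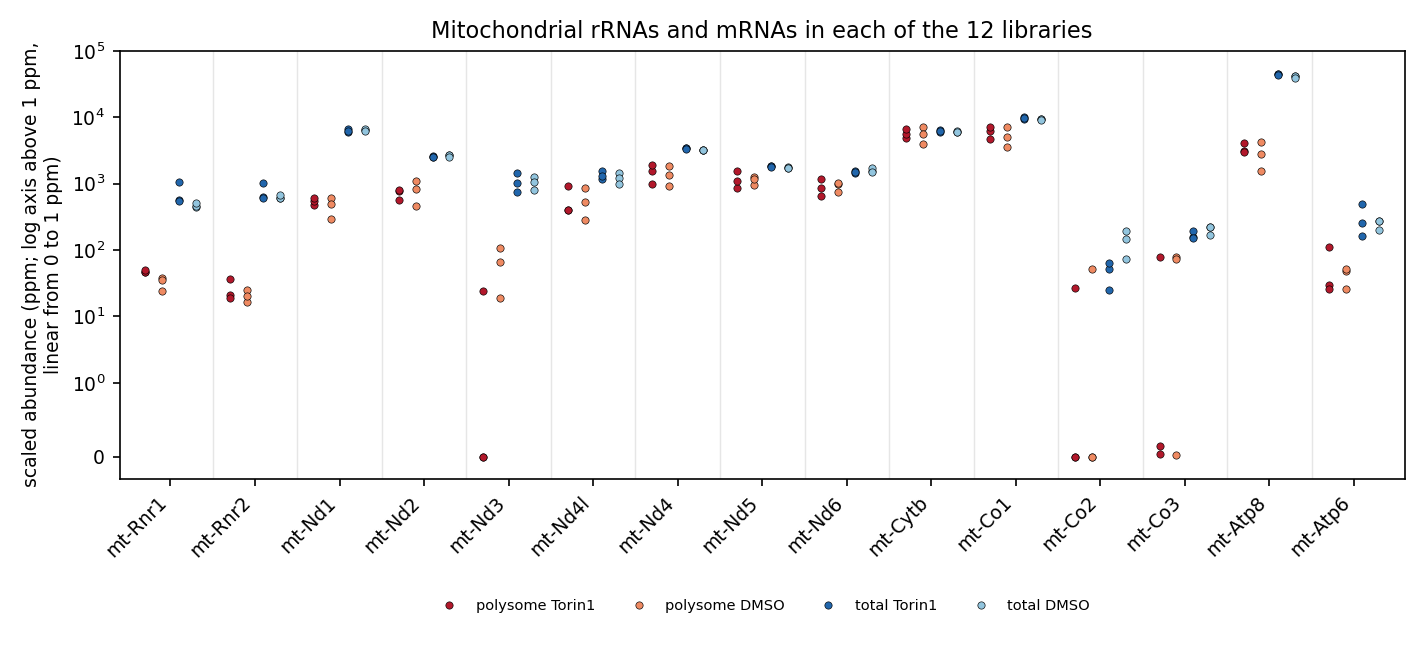
Scaled abundance (ppm) of the 15 mitochondrial rRNAs and mRNAs in each of the 12 libraries, 1 point a library, on an axis that is logarithmic above 1 ppm and linear below. mt-Cytb is the RNA whose polysome and total points overlap in both treatments, and mt-Nd3, mt-Co2 and mt-Co3 are at or near 0 in some polysome libraries.

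Because the mRNAs differed in how much of their signal remained in polysome libraries, the make-up of the mitochondrial mRNA signal differed between the fractions. mt-Cytb was 29.7, 27.3 and 27.1% of the summed signal of the 13 mRNAs in Torin1 polysome libraries, with a mean of 28.0 ± 1.45% there and 29.4 ± 1.45% in DMSO polysome libraries, against 7.90 ± 0.0753% in Torin1 total libraries and 8.13 ± 0.0944% in DMSO total libraries (SD, n = 3 each). mt-Co1 was 29.1 ± 1.72% and 27.6 ± 0.812% in Torin1 and DMSO polysome libraries, against 12.4 ± 0.246% and 12.4 ± 0.137% in Torin1 and DMSO total libraries. mt-Atp8 was 16.6 ± 1.68% and 14.4 ± 2.33% in Torin1 and DMSO polysome libraries, against 56.2 ± 1.16% and 54.6 ± 0.230% in Torin1 and DMSO total libraries. mt-Nd1 was 2.65 ± 0.187% and 2.42 ± 0.193% in Torin1 and DMSO polysome libraries, against 8.03 ± 0.225% and 8.64 ± 0.0565% in Torin1 and DMSO total libraries. These shares are of deposited signal and not of molecules, and they were alike in the 3 libraries of a group compared with the gap between fractions. The ratio of mt-Cytb to mt-Atp8 within a library, which no scaling between libraries touches, was 1.62 to 1.82 in Torin1 polysome libraries, 1.68 to 2.57 in DMSO polysome libraries, 0.136 to 0.144 in Torin1 total libraries and 0.146 to 0.151 in DMSO total libraries.

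**Figure D3:**
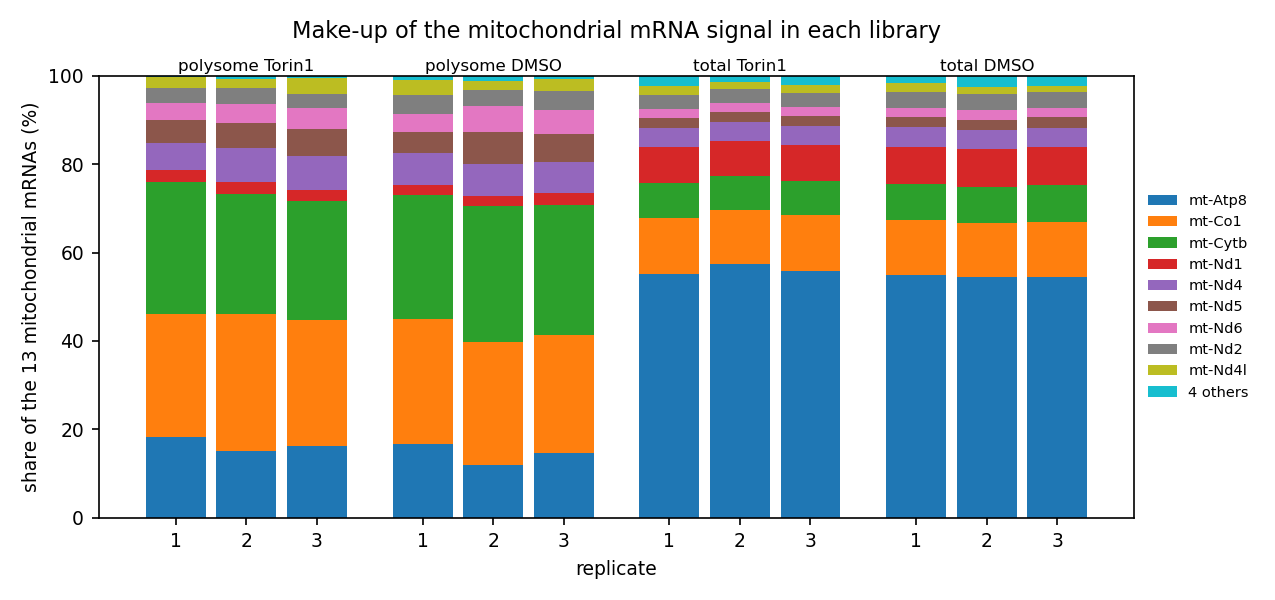
Percent of the summed signal of the 13 mitochondrial mRNAs held by each mRNA, 1 stacked bar a library, with the 4 lowest (mt-Co2, mt-Co3, mt-Atp6 and mt-Nd3) joined as others. mt-Atp8 averages 16.6 and 14.4% of the Torin1 and DMSO polysome bars and 56.2 and 54.6% of the Torin1 and DMSO total bars. mt-Cytb takes 27.1 to 30.9% of a polysome bar and 7.81 to 8.21% of a total bar.

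Across the 11 mRNAs with no library at 0, shorter mRNAs tended to have the lower fold. Spearman's rho between the log2 fold of polysome against total RNA and length, counting the joint span for the mt-Atp8/mt-Atp6 and mt-Nd4l/mt-Nd4 mRNAs, was 0.571 in Torin1 cells and 0.507 in DMSO cells, and Pearson's r was 0.478 and 0.507. This is a description over 11 genes of 1 genome, which share their libraries and, for 2 joint mRNAs, their molecule. mt-Nd1, mt-Cytb and mt-Nd6 break the order. The spans of mt-Nd1 and mt-Cytb are 957 and 1144 bases, and their log2 folds in DMSO cells were -3.85 and -0.16. mt-Nd6, at 519 bases the shortest of the 11 by this count, had -0.78 in Torin1 cells and -0.77 in DMSO cells. The 11 also include mt-Co3 (784 bases), which was near 0 in some polysome libraries. Its log2 folds were -7.22 ± 2.64 in Torin1 cells and -4.69 ± 2.64 in DMSO cells.

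Within a group, of polysome or of total RNA, many of the mitochondrial mRNAs ranked the libraries alike. Of the 11 mRNAs with no library at 0, replicate 3 was the highest of the Torin1 polysome libraries for 10 and replicate 1 the lowest for 8, and replicate 1 was the highest of the DMSO polysome libraries for 9 and replicate 2 the lowest for 9. Among Torin1 total libraries replicate 1 was the highest for 7 and replicate 2 the lowest for 7. Among DMSO total libraries replicate 2 was the highest for 6 and replicate 3 the lowest for 9. How all genes ranked these libraries was not tested.

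**Figure D4:**
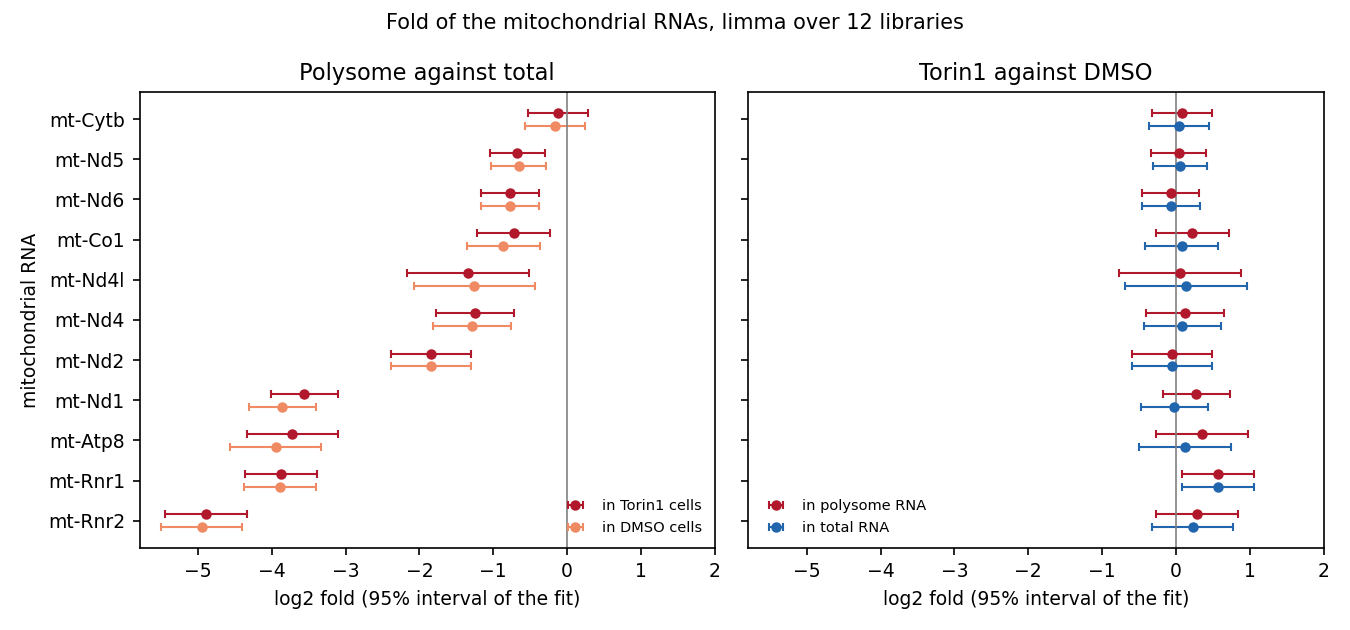
Log2 folds of 11 mitochondrial RNAs from the limma fit over 12 libraries, polysome against total RNA on the left and Torin1 against DMSO on the right, with 95% intervals; mt-Nd3, mt-Co2, mt-Co3 and mt-Atp6, which have libraries at or near 0 or scattered values, are left out. On the left mt-Cytb alone crosses 0 and mt-Rnr2 is near -4.9 in both treatments, and on the right no fold passes the adjusted threshold.

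Torin1 against DMSO asks whether 2 h of mTOR inhibition went with a change in these RNAs. In total RNA none of the 15 was called, where 7.48% of all genes tested were called in either direction, and 1 of 15 had an unadjusted p under 0.05 (limma). That RNA was mt-Rnr1, with a log2 fold of 0.56 ± 0.22 (adjusted p = 0.166), and without replicate 2 of Torin1 total RNA, the library that stands apart, it was 0.26 (adjusted p = 0.440). For mt-Atp8, mt-Nd4 and mt-Nd5 every Torin1 total library also lay above every DMSO total library, as it did for 15.6% of all genes, with log2 folds of 0.12, 0.09 and 0.05. For mt-Co2 every Torin1 total library lay below every DMSO total library, as it did for 17.7% of all genes. The 95% interval of mt-Cytb ran from -0.37 to 0.45 and that of mt-Nd5 from -0.32 to 0.42, so that larger changes of either lay outside it.

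In polysome RNA 1 of the 15 was called for Torin1 against DMSO, where 10.7% of all genes were called and 6.27% were lower. It was mt-Nd3, which was lower (limma, adjusted p = 0.0277) with the values given above, 23.99, 0 and 0 ppm in Torin1 polysome libraries and 108.2, 18.9 and 65.3 ppm in DMSO polysome libraries. The ranges overlapped, the call rests on libraries listed at 0, and it was lost in 5 alternative fits, among them those without replicate 2 or 3 of Torin1 polysome RNA or replicate 1 or 3 of DMSO polysome RNA (highest adjusted p 0.219). mt-Rnr1 was the 1 RNA for which every Torin1 polysome library lay above every DMSO polysome library, as 11.0% of all genes did, and its log2 fold of 0.57 ± 0.22 did not pass the threshold (limma, adjusted p = 0.135). The median log2 fold of the 15 was 0.08, and -0.01 over all genes. Scaling by column totals only put the median of all genes at 0.23, and mt-Rnr1 (0.83) and mt-Nd1 (0.54) were then also called, both higher with Torin1 (adjusted p = 0.0123 and 0.0465, limma).

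The interaction asks whether the polysome to total difference itself differed between Torin1 and DMSO cells. None of the 15 was called, where 0.707% of all genes were, and 1 of 15 had an unadjusted p under 0.05 (limma). That was mt-Nd3 (adjusted p = 0.643). Without replicate 1 of Torin1 polysome RNA, which leaves that group at 0, mt-Nd3 was called. Whether the assignment of reads that also match nuclear sequence lowers mt-Nd3 was not tested. For mt-Cytb the interaction was 0.04 on the log2 scale with a 95% interval of -0.54 to 0.62, and for mt-Nd5 it was -0.02 with an interval of -0.54 to 0.50.

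Noncoding RNAs of nuclear genes, taken as not translated by cytosolic ribosomes, were set beside the mitochondrial RNAs. Whether any of them is translated was not tested. Of 12 tested, 8 were lower and none higher in polysome than in total RNA of Torin1 cells, and 7 were lower and none higher in DMSO cells, where 19.1% and 19.3% of all genes were lower. The median log2 folds were -1.97 and -1.83. Malat1 and Rn7sk, given below, had the greatest folds of the list, and the others fell less. Without replicate 2 of Torin1 total RNA, 6 of the 12 were lower in Torin1 cells, with a median of -1.71. Malat1, a nuclear speckle RNA, had 2.96, 7.50 and 3.51 ppm in Torin1 polysome libraries and 6.81, 3.61 and 7.70 ppm in DMSO polysome libraries, against 32.5, 35.6 and 35.3 ppm in Torin1 total libraries and 57.3, 67.5 and 67.7 ppm in DMSO total libraries. Its log2 folds were -2.99 ± 0.32 in Torin1 cells and -3.46 ± 0.32 in DMSO cells, between those of mt-Nd2 and mt-Rnr2. Rn7sk was also called lower in both treatments, with 6.16, 1.18 and 9.88 ppm in Torin1 polysome libraries and 1.19, 0 and 5.69 ppm in DMSO polysome libraries, against 80.8, 2062 and 40.7 ppm in Torin1 total libraries and 38.2, 59.3 and 180.9 ppm in DMSO total libraries. The call for Rn7sk in Torin1 cells was lost without replicate 2 of Torin1 total RNA (log2 fold -3.76, adjusted p = 0.0895, limma). Neat1, the scaffold RNA of paraspeckles, was the 1 RNA of this list called for Torin1 against DMSO, higher in polysome RNA (log2 fold 1.47 ± 0.42, adjusted p = 0.0442) and in total RNA (2.07 ± 0.42, adjusted p = 0.0121; limma). The call for Neat1 in total RNA was lost without replicate 2 of Torin1 total RNA (1.88, adjusted p = 0.0564). Its levels were 0.264 to 0.558 ppm in Torin1 polysome libraries and 0.111 to 0.113 ppm in DMSO polysome libraries.

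Abundant cytosolic mRNAs, which cytosolic ribosomes do translate, were set beside them as well. Of 15 tested, 8 were higher and 4 lower in polysome than in total RNA of Torin1 cells, and 10 were higher and 2 lower in DMSO cells, where 20.7% and 21.8% of all genes were higher and 19.1% and 19.3% lower. The median log2 folds were 0.29 and 0.35. In Torin1 cells 7 were higher and 3 lower without replicate 2 of Torin1 total RNA. Ppia, the proline isomerase cyclophilin A, averaged 4923 ± 1116 ppm in Torin1 polysome libraries against 1733 ± 48.4 ppm in Torin1 total libraries, and 5318 ± 445 ppm in DMSO polysome libraries against 1742 ± 20.2 ppm in DMSO total libraries (SD, n = 3 each). Ldha, lactate dehydrogenase A, was 1.89-fold higher in Torin1 cells and 1.85-fold higher in DMSO cells. For Torin1 against DMSO, Hspa8, a constitutive HSP70 chaperone, was the 1 gene called in polysome RNA (log2 fold -0.53 ± 0.09), and Hsp90ab1, an HSP90 chaperone, the 1 called in total RNA (0.35 ± 0.08).

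The nuclear genes that transcribe, replicate and process the mitochondrial genome and its RNAs are translated in the cytosol. Of 52 tested, 15 were higher and 2 lower in polysome than in total RNA of Torin1 cells, and 14 were higher and 6 lower in DMSO cells, where 20.7% and 21.8% of all genes were higher and 19.1% and 19.3% lower. The median log2 folds were 0.19 and 0.18. Without replicate 2 of Torin1 total RNA, 14 were higher and 1 lower in Torin1 cells, with a median of 0.14. Slirp, which with Lrpprc stabilises mitochondrial mRNAs, had 38.7, 45.1 and 62.8 ppm in Torin1 polysome libraries against 24.7, 22.2 and 23.0 ppm in Torin1 total libraries (log2 fold 1.04 ± 0.17), and 81.5, 58.3 and 77.9 ppm in DMSO polysome libraries against 23.3, 30.6 and 25.2 ppm in DMSO total libraries (1.45 ± 0.17). Tefm, the mitochondrial transcription elongation factor, had a log2 fold of 1.01 ± 0.16 in Torin1 cells, and Hsd17b10, a subunit of mitochondrial RNase P, had 1.00 ± 0.07 in DMSO cells.

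For Torin1 against DMSO, 3 of the 52 were higher and 2 lower in polysome RNA, and 5 were higher and none lower in total RNA. These 5 calls in each fraction lie near the share of all genes called, 10.7% in polysome and 7.48% in total RNA, so they are no result about the list. With replicate 2 of Torin1 total RNA left out, 4 were higher in total RNA. Lrpprc had 25.1, 28.1 and 27.5 ppm in Torin1 polysome libraries against 16.6, 15.8 and 14.4 ppm in DMSO polysome libraries, with no overlap (log2 fold 0.79 ± 0.08; limma, adjusted p = 0.000114). Trit1, a tRNA isopentenyl transferase, had 22.3, 22.0 and 19.3 ppm in Torin1 polysome libraries against 14.4, 15.8 and 17.0 ppm in DMSO polysome libraries (0.43 ± 0.10, adjusted p = 0.0177). In total RNA Tfb1m, the methyltransferase of the 12S rRNA, had 5.51, 6.80 and 4.46 ppm with Torin1 against 3.62, 2.54 and 2.91 ppm with DMSO (0.87 ± 0.22, adjusted p = 0.0339), a call lost without replicate 2 of Torin1 total RNA (adjusted p = 0.130). Nsun3, a methyltransferase of the mitochondrial methionine tRNA, had 8.54, 7.28 and 10.5 ppm against 5.61, 5.90 and 6.29 ppm (0.54 ± 0.14, adjusted p = 0.0425). None of the 52 was called in the interaction, where Hsd17b10 had -0.29 ± 0.10 (adjusted p = 0.540).

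Factors that serve the mitochondrial ribosome are likewise encoded in the nucleus and made in the cytosol. Of 31 tested, 9 were higher and 3 lower in polysome than in total RNA of Torin1 cells, and 10 were higher and 3 lower in DMSO cells, where 20.7% and 21.8% of all genes were higher and 19.1% and 19.3% lower. The median log2 folds were 0.17 and 0.15, against -0.02 and -0.0046 over all genes. In Torin1 cells the median of the list was 0.25 without replicate 2 of Torin1 total RNA. Mars2, the mitochondrial methionyl-tRNA synthetase, was lower, with 1.64, 1.91 and 1.92 ppm in Torin1 polysome libraries against 4.30, 4.37 and 4.26 ppm in Torin1 total libraries (log2 fold -1.22 ± 0.14), and 2.34, 2.17 and 2.06 ppm in DMSO polysome libraries against 5.91, 6.06 and 6.64 ppm in DMSO total libraries (-1.48 ± 0.14). Mtrf1, a mitochondrial release factor, was higher in Torin1 cells (0.79 ± 0.24), a call lost without replicate 2 of Torin1 total RNA (0.66, limma, adjusted p = 0.0764).

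For Torin1 against DMSO, 2 of the 31 were higher and 1 lower in polysome RNA, and 1 was higher and 2 lower in total RNA. These 3 calls in each fraction also lie near the 10.7% and 7.48% of all genes called, and without replicate 2 of Torin1 total RNA none of the 31 was called in total RNA. In polysome RNA Ears2, the glutamyl-tRNA synthetase, had 12.7, 11.8 and 10.7 ppm with Torin1 against 7.77, 6.24 and 7.28 ppm with DMSO (log2 fold 0.72 ± 0.14; limma, adjusted p = 0.00624), and Tars2, the threonyl-tRNA synthetase, had 31.9, 27.5 and 26.3 ppm against 19.3, 22.8 and 21.5 ppm (0.42 ± 0.10, adjusted p = 0.0233). In total RNA Mars2 fell by 0.52 on the log2 scale (SE 0.14, adjusted p = 0.0436) and Tsfm, the elongation factor that recharges Tufm, fell by 0.46 (SE 0.09, adjusted p = 0.0126), with 23.8, 21.8 and 24.5 ppm with Torin1 against 32.6, 33.5 and 30.1 ppm with DMSO. Without replicate 2 of Torin1 total RNA the adjusted p-values were 0.108 for Mars2 and 0.0571 for Tsfm (limma). None of the 31 was called in the interaction; Tufm, the mitochondrial elongation factor Tu, had -0.19 ± 0.09 (adjusted p = 0.905).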

How the data were processed

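Polysome and total RNA of Torin1 and DMSO cultures of mouse cortical neural progenitors were measured in 12 libraries, 3 biological replicates a group, with groups taken from the titles. STAR 2.7.9a, HTSeq 0.6.0 and mm10 are named in the submitters' processing notes, which give their roles nowhere. The deposited values are a signal and not counts: in each column, all nonzero values under 1000 steps lay within 0.02 units of a whole multiple of 1 step, and a column's total held the same number of steps in every library to within rounding, so a step is a share of the column and not a read. The sources used here do not say how the authors scaled it.

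Each column was divided by its total, then by a trimmed mean of log ratios without weights (0.3 of ratios and 0.05 of abundances trimmed) and set to the mean column total, so that 1 ppm is 17.29 deposited units. limma 3.58.1 (R 4.3.3) fitted log2(scaled value + 1) over all 12 libraries with 4 group means, for the 20240 genes that reached a deposited value of 1 in 3 or more libraries. The 5 comparisons were each adjusted by Benjamini-Hochberg, with a threshold of 0.05. Folds of very low genes come out too small on this scale. Shares of the column total were summed with no test. Each polysome library was set against the mean of the total libraries of its treatment, so the SD of such a ratio leaves out the spread of the total libraries. All comparisons within a treatment or fraction share libraries with another comparison.

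Positions are from RefSeq's table for GRCm38; the 2 rRNAs matched by symbol and the other members by their standard names. All 13 mRNAs and both rRNAs were named; each list adds, per comparison, its 2 called genes of greatest absolute fold, or its most abundant gene if it has no call. A gene that this rule names is not reported here. The members and lists were chosen with earlier results of these data known. On simulated data of 20240 genes for polysome against total RNA in DMSO cells, the fit recovered 77 of 100 genes changed 1.5-fold and 88 of 100 changed 2-fold, and called 6 unchanged genes. For the other comparisons simulated it recovered 68 to 75 at 1.5-fold and 91 to 95 at 2-fold, and called 8 to 17 unchanged genes. Changed genes were drawn from the 9222 expressed genes alone, so recovery for genes near 0 was not tested. Each simulation changed only 200 of the 20240 genes. In the data, 41.2% of genes were called for polysome against total RNA in DMSO cells and 39.8% in Torin1 cells. Recovery and false calls at such shares were not tested. The alternatives changed the scaling, the filter, the pseudocount (0.1), the samples fitted or the block, or left out each library; sums with Gm10925, or with the 5 Gm rows, and ratios and lists without replicate 2 of Torin1 total RNA were added after seeing the data.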

Additional observations from a re-analysis of the deposited data

How the results depend on the processing

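The counts of RNAs lower in polysome than in total RNA stayed within 10 to 12 of 15 in DMSO cells and 10 to 13 of 15 in Torin1 cells when each library was left out, against 12 and 13, and no mitochondrial RNA changed direction past the threshold under any alternative run. In polysome RNA, the 1 RNA called for Torin1 against DMSO became 3 with scaling to the column total alone and 3 with scaling to the column total without mt- rows, 0 when the groups were compared alone, and 0 to 1 when each library was left out. The interaction count of 0 became 0 to 1 when each library was left out. For counts and for shares the causes were not tested beyond what each alternative itself changes.

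The shares of total libraries depend on what is summed. With the mt- rows taken out of the denominator, all mt- rows came to 9.47% for Torin1 and 9.10% for DMSO total libraries, the mRNAs to 9.29 and 8.96%, and the rRNAs of DMSO total libraries to 0.133%. With Gm10925 added the shares were 9.48 and 9.18%. With the 5 Gm rows added they were 2.84% for Torin1 polysome, 2.20% for DMSO polysome, 13.2% for Torin1 total and 12.8% for DMSO total libraries. Of these rows Gm28661, Gm28437 and Gm28438 were picked for high values in total libraries and are not annotated further. That choice favours a wide gap between the fractions, so these sums support nothing. Without the overlapping pairs, mt-Cytb was 38.2% of the mRNA signal in Torin1 polysome, 39.0% in DMSO polysome, 21.1% in Torin1 total and 20.8% in DMSO total libraries. With trimmed mean scaling, the polysome share was 25.8% of total in Torin1 cells and 25.4% in DMSO cells for all rows, 26.2 and 25.7% for mRNAs and 4.93 and 4.82% for rRNAs, so the treatments lay closer together on this scale than in the unscaled ratios. Without replicate 2 of Torin1 total RNA, an alternative chosen after seeing the data, the unscaled ratio of Torin1 cells was 5.59% for rRNAs.

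The polysome and total RNA came from 1 lysate per the labels' protocol, but the labels do not say that a replicate number names a lysate. Same-numbered polysome and total libraries did not deviate together over 9222 expressed genes. Correlations of their deviations ran from -0.085 to 0.028 in DMSO cells and from -0.032 to 0.081 in Torin1 cells. Of 6 libraries each, 1 in DMSO cells and 2 in Torin1 cells correlated best with their own number. With same-numbered Torin1 and DMSO libraries, which are different cultures, counted in, the range was -0.23 to 0.329 and the count 7 of 24. With the replicate number as a block, 12 RNAs were called in DMSO cells, 12 in Torin1 cells, 1 for Torin1 in polysome RNA, 0 in total RNA and 0 in the interaction, and mt-Co3 in Torin1 cells was not called (adjusted p = 0.0760, limma). With the culture as a replicate block, 13 were called in each treatment, mt-Nd3 in DMSO cells among them (adjusted p = 0.0458, limma), and 0 in the interaction. Depth in reads is unknown, so the RNAs at 0 cannot be given a floor.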
